A study of Mus musculus with 2 samples.

Results

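Genes with several separate open starts are protein-coding genes whose transcripts begin at places far apart, more than one of which lay in open chromatin in mouse calf muscle. They were taken from chromosomes 1 to 19 of the GENCODE M21 annotation of mm10, as genes with at least 2 coding transcript starts 5 kb or more apart, each with a peak of its own within 500 bp in both libraries. Of 20722 protein-coding genes, 951 met this rule, or 4.59%. They held 2086 such starts, namely 951 first starts, the most upstream open start of each gene, and 1135 internal starts further along the gene. The genes were chosen by the presence of peaks in these libraries, so that their starts are open is no result. Peak values are given as a description with counting intervals, and no test over genes was made.

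DNase-seq reads the ends of fragments that DNase I cuts from accessible chromatin. The tissue was gastrocnemius, a muscle of the calf, from B6CASTF1/J males at 10 days of age, an F1 cross that carries C57BL/6 and CAST alleles. The study held 1 group of 2 libraries, biological replicates 1 and 2 with technical replicate number 1 each. Both carry one donor record that names 3 males, and the labels do not say whether tissue was pooled. The spread between libraries is therefore that between these samples only, and part of it may be technical. Values are given for replicate 1 and then replicate 2. On chromosomes 1 to 19 replicate 1 had 119611 peaks and replicate 2 had 145742. All 6 skeletal muscle markers examined, Myod1, Myog, Des, Acta1, Ckm and Mylpf, had an open start in both libraries. So did 4 of 4 endothelial markers, 3 of 3 fibroblast markers, 1 of 2 Schwann cell markers and 0 of 3 macrophage markers, and Ins2 was open among 5 markers of tissues absent from a calf muscle. In whole tissue a low peak shared by all cells and a high peak in few cells cannot be told apart.

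Many mammalian genes carry alternative promoters, and each one gives transcripts with a first exon of its own. An internal promoter can yield a protein that lacks the amino-terminal part of the longer form, or only change the leader of the same protein, and it can be used in another tissue or at another stage. Promoters in CpG islands, stretches where the CpG dinucleotide is kept, are open in most tissues, while CpG-poor promoters are more often tissue-specific.

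The sequences of 16 starts are shown because they carry the contrasts described below. They come from muscle genes with both kinds of start, from genes whose next start was far more open than the first, and from starts with a recognisable protected site. Each is 150 bases of the mm10 reference from RefSeq GRCm38, outside annotated exons and read 5′ to 3′ on the strand of the gene, and lies between 1 and 277 bases before the start. Capitals mark bases under a footprint, a short stretch protected from cleavage, in both libraries.
Rcan1 first start (chr16:92466272-92466421, minus strand): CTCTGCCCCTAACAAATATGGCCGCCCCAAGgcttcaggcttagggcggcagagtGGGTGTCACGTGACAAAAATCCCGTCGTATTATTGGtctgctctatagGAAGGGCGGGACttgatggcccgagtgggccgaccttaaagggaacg
Rcan1 second start (chr16:92400078-92400227, minus strand): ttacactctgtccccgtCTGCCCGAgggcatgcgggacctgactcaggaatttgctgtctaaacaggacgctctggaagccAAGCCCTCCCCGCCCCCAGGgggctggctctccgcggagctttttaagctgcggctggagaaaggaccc
Hdac5 first start (chr11:102230191-102230340, minus strand): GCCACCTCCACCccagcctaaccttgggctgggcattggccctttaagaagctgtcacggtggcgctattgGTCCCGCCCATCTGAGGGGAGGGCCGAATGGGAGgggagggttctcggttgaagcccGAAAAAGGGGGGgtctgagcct
Hdac5 second start (chr11:102218959-102219108, minus strand): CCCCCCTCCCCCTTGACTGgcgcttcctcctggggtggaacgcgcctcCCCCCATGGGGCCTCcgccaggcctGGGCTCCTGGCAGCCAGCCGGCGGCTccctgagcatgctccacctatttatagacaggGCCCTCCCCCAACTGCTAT
Tpm1 first start (chr9:67049407-67049556, minus strand): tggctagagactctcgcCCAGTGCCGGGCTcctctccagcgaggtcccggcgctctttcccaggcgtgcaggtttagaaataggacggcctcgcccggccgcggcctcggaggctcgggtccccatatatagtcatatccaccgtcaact
Tpm1 second start (chr9:67043972-67044121, minus strand): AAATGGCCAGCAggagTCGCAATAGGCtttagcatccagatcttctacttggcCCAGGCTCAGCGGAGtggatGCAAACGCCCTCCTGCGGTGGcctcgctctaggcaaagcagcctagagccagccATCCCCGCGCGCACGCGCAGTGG
Speg first start (chr1:75375146-75375295, plus strand): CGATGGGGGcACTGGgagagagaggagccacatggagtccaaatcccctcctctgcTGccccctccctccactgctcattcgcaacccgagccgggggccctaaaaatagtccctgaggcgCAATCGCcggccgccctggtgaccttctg
Speg last start (chr1:75399935-75400084, plus strand): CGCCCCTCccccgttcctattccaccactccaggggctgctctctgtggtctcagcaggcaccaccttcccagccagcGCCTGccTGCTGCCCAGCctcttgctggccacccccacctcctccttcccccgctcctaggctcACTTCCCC
Myl1 first start (chr1:66945405-66945554, minus strand): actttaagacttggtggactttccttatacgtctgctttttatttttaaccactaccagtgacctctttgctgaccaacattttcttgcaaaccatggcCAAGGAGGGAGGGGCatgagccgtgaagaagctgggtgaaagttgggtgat
Atp2a1 first start (chr7:126463109-126463258, minus strand): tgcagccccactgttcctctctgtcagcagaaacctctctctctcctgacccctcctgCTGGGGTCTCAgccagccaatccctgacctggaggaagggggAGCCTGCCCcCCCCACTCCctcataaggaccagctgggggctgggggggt
Ndel1 first start (chr11:68871859-68872008, minus strand): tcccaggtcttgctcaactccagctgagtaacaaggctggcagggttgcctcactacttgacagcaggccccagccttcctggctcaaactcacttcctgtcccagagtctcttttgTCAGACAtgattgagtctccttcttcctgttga
Ndel1 second start (chr11:68853136-68853285, minus strand): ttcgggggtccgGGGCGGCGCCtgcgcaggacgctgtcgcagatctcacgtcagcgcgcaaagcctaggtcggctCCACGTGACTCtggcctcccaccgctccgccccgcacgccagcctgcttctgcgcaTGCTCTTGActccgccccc
Dgkz second start (chr2:91963658-91963807, minus strand): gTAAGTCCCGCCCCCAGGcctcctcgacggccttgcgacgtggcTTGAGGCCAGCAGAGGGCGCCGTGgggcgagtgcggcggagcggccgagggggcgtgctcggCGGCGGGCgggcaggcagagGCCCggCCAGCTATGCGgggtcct
Myo18a first start (chr11:77763096-77763245, plus strand): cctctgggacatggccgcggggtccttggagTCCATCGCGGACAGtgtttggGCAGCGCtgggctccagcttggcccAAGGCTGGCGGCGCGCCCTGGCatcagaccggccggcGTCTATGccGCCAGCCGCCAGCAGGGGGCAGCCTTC
Myo18a second start (chr11:77801148-77801297, plus strand): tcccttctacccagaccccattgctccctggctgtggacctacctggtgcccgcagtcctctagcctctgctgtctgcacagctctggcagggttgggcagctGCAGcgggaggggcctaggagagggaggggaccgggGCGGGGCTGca
Tns1 last start (chr1:73963171-73963320, minus strand): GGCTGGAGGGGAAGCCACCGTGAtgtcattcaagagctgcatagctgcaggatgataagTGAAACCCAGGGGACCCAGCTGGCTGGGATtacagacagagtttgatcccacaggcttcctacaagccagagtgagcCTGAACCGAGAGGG

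Rcan1 and Hdac5 are shown as regulators of muscle gene programmes, and Tpm1, Speg, Myl1 and Atp2a1 as genes of the contractile and calcium-handling apparatus. The first start of Rcan1 carried a CACGTG E-box and a CCAAT box under footprints. In the internal start of Hdac5 the match to the MEF2 pattern, the site of a muscle transcription factor family, overlapped a TATA box match and lay outside the shared footprints. Myl1 and the first start of Speg also held a MEF2 match, outside the footprints. CTCF core matches lay under shared footprints at the first start of Myo18a and at the second start of Dgkz. The last start of Tns1 held CAGCTG, the E-box of myogenic factors, under a footprint. A match says only that these letters are in the window.

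Separate open starts were found in 951 of the 4789 genes that have 2 or more coding starts at least 5 kb apart, or 19.9%. For the next counts, annotated coding starts at least 5 kb apart were first taken from the 5′ end whether open or not, so an open start under 5 kb from one of them is not counted and the split need not add up to the 951 genes. The first of them was open in both libraries in 69.9% of the 4789 genes, and 21.9% of 6704 internal annotated starts were. Only the first start was open in 2517 genes (52.6%), the first and an internal one in 831 (17.4%), internal starts alone in 426 (8.90%), and none of these in 1015 (21.2%). By the open starts themselves, the first was the most upstream annotated coding start in 92.5% of the 951 genes. These genes were long, with a median span of 84877 bp. The other 2950 open genes with separate coding starts had a median of 51053 bp, and all other open genes one of 22855 bp.

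There were 810 genes with 2 open starts, 107 with 3, 27 with 4, 5 with 5 and 2 with 6. The median distance of the first and the next start was 26774 bp, and the middle 80% of genes lay between 6882 and 165439 bp. The longest distance, 2857087 bp, was annotated at Fgfr2, a receptor of fibroblast growth factors, whose first start also lay within 500 bp of a start of another gene. Just inside the limit lay Abhd4 at 5044 bp, Capg at 5060 bp and Nfia at 5069 bp. Just outside it were Park7 at 4954 bp, Ptov1 at 4953 bp and Asl at 4947 bp. Abhd4, a lipid hydrolase, had values of 11.7 and 17.5 at its first start and 7.52 and 11.8 at its next start. The first start of Abhd4 also lay within 500 bp of a start of another gene. Park7, a redox-responsive protein, had 10.5 and 14.8 at its first and 14.5 and 20.2 at its next start. Capg, a capping protein of actin, was weaker on the inner side, with 1.05 and 1.20 at its first and 0.935 and 1.80 at its next start.

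First starts were more open than internal starts. The median peak value, a depth-scaled signal, was 3.40 and 4.46 at first starts, 1.52 and 1.95 at internal starts, and 4.66 and 6.46 at the starts of 12977 genes with 1 separate open start. With 1 tag per smallest step of the values, these medians were 625 and 760 tags, 280 and 333 tags, and 857 and 1101 tags. Values of replicate 2 were a median of 1.30 times those of replicate 1 at first, 1.31 times at internal and 1.35 times at other genes' starts. The classes overlapped widely: the middle 80% ran from 0.772 to 10.4 at first starts and from 0.511 to 6.68 at internal starts in replicate 1, and from 0.757 to 16.1 and from 0.569 to 9.29 in replicate 2. In the 1001 bases centred on the start, the authors' listed bases, those at a false discovery rate under 0.05, covered a median of 73.8% and 72.9% at first starts. At internal starts they covered 42.3% and 48.7%. The stricter peaks were present in both libraries at 92.4% of first starts and 78.6% of internal starts, against 91.5% of all 15063 separate open starts.

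**Figure D1:**
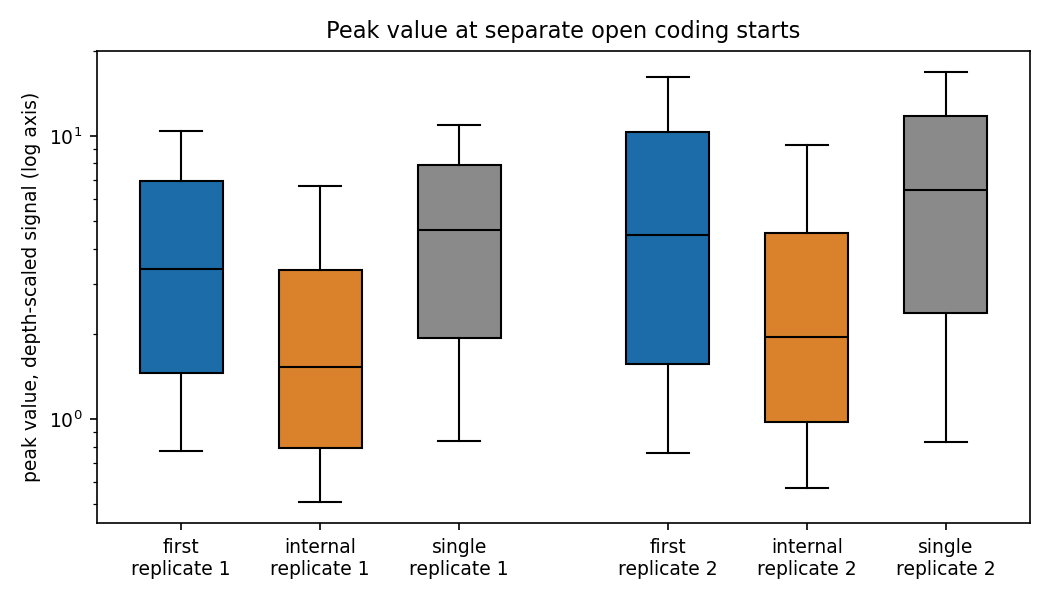
Peak value on a log axis at 951 first starts, 1135 internal starts and 12977 starts of genes with 1 separate open start (single), for replicate 1 at the left and replicate 2 at the right. Boxes span the 25th to 75th percentile with the median as a line, and whiskers reach the 10th and 90th percentile. The medians of internal starts, 1.52 and 1.95, lie below those of first starts, 3.40 and 4.46, and the boxes overlap.

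Within genes, the first start was compared with the next one. A start was called higher when the exact 95% interval (Clopper-Pearson) of the first start's share of the tags of the pair lay on the same side of 50% in both libraries. By this rule the first start was higher in 544 of 951 genes (57.2%) and the next start in 261 (27.4%), in all 805 genes or 84.6%. The libraries gave opposite calls in 30 genes, and 146 genes had no common call. The median log2 ratio of first over next was 0.84 and 0.90. The log2 ratios differed between the libraries by an SD of 0.45, and both lay above 1 in 412 genes, below -1 in 155 and within 1 in 242. Such intervals cover counting error only.

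**Figure D2:**
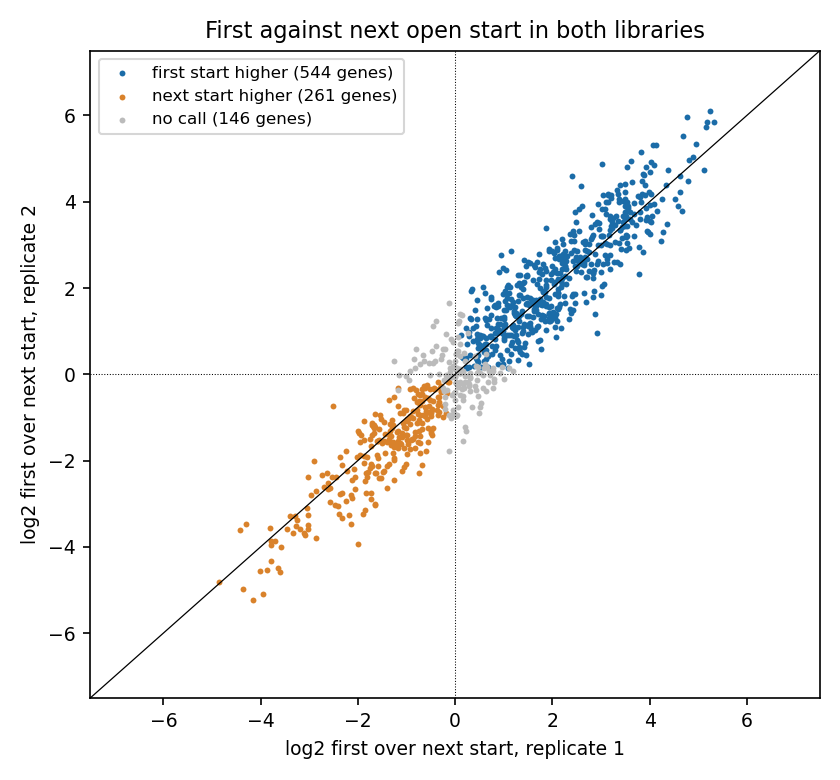
Log2 ratio of first over next start in replicate 1 (x axis) and replicate 2 (y axis), 1 point per gene, coloured by call, with the line of equality. Points lie along the diagonal, with 544 genes called higher at the first start and 261 at the next start.

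The first start dominated most in Dcaf6, Spindoc, Crem, Ints10, Hivep3, March3 and Pcx. Dcaf6 encodes a substrate receptor of a cullin ubiquitin ligase. Its first start had 18.2 and 24.9, and its next start, 71704 bp downstream, 0.484 and 0.364. The first start thus held 97.4% (95% interval 96.8 to 97.9) and 98.6% (98.2 to 98.9) of the tags of the pair. Pcx, the pyruvate carboxylase that replenishes the citric acid cycle, had 9.52 and 18.6 at its first and 0.348 and 0.299 at its next start. Hivep3, a zinc finger transcription factor, had 18.9 and 28.9 at its first and 0.636 and 0.880 at its next start. Ints10, a subunit of the Integrator complex, had 13.4 and 14.0 against 0.430 and 0.346, first and next start. Across these 7 genes the log2 ratio ran from 4.77 to 5.23 in replicate 1 and from 4.98 to 6.09 in replicate 2. All 7 had a CpG-rich first start and a CpG-poor next start. The next starts of Dcaf6, Spindoc and Ints10 were annotated only by transcripts with an incomplete 5′ end.

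The next start dominated most in Por, Ndel1, Pnpla8, Dgkz, Tjp1, Pax5 and Iqgap1. Por, the reductase that passes electrons to cytochrome P450 enzymes, had 0.364 and 0.616 at its first start. It had 10.5 and 17.5 at the start 14451 bp further on, and 0.843 and 1.16 at its last start. Annotated transcripts of its first and its next start share a codon at which translation begins. Ndel1, a regulator of the dynein motor, had 0.680 and 0.804 at its first and 14.0 and 25.2 at its next start. The sequences above differ as well, since the first start of Ndel1 has 7 bases under shared footprints and the next has 30, over a CACGTG E-box and an SP/KLF site. Dgkz, which phosphorylates diacylglycerol, had 0.794 and 0.616, then 12.9 and 14.6, then 1.61 and 2.25 at its 3 starts. Iqgap1, a scaffold of the cell cortex, had 0.609 and 0.921 at its first start and 8.37 and 14.3 at its next. Pax5, a transcription factor known for B cells, had 0.402 and 0.411 against 5.54 and 5.97, and its next start was CpG-rich. In these 7 genes the log2 ratio lay between -4.85 and -3.78 in replicate 1 and between -5.23 and -3.86 in replicate 2. All 7 next starts were CpG-rich, and so were the first starts of Dgkz and Tjp1.

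Sequence class went with the contrast of value. A start was called CpG-rich when its 1001 bases had a CpG observed-to-expected ratio of at least 0.6 and a GC content of at least 50%. Of first starts 67.2% were CpG-rich, of internal starts 27.8%, and of all 15063 open starts 67.2%. The median CpG ratio was 0.714 at first, 0.396 at internal and 0.726 at other genes' starts. In 477 genes a CpG-rich first start preceded a CpG-poor next one. There the median log2 ratio was 1.84 and 1.73, and 366 genes were called higher at the first and 49 at the next start. In 162 genes both were CpG-rich, with a median of 0.02 and 0.02 and calls of 69 and 67. In 195 genes both were CpG-poor, with 0.31 and 0.16 and calls of 86 and 67. In 117 genes a CpG-poor first start preceded a CpG-rich one, and the order turned round, with -0.99 and -1.25 and calls of 23 and 78. Where both starts were of the same class, the first was thus not consistently the higher, although in the CpG-poor pairs it was called higher more often.

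**Figure D3:**
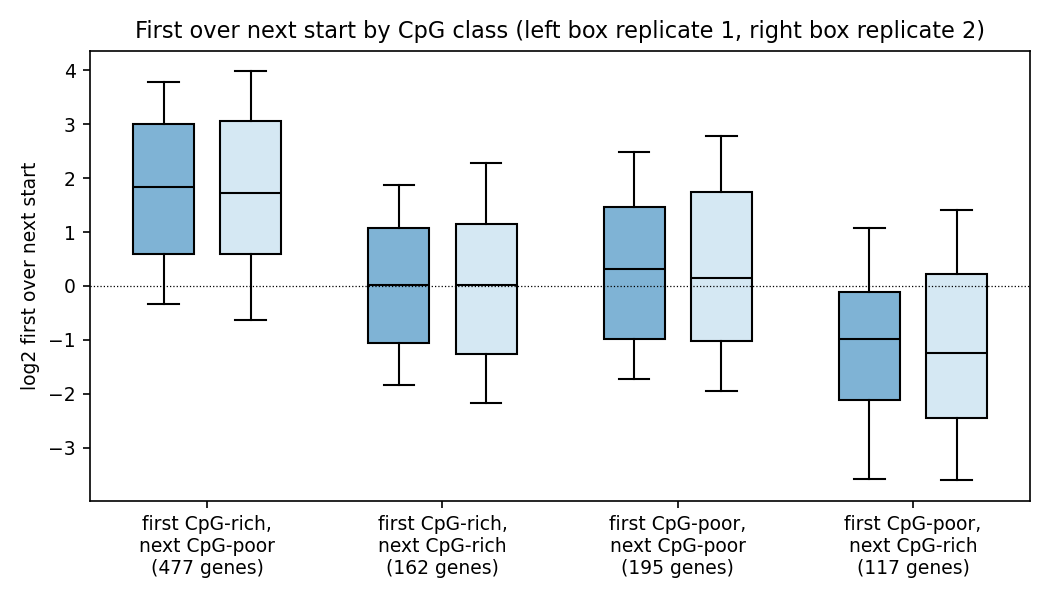
Log2 ratio of first over next start by the CpG class of the pair of starts, with the left box of each pair for replicate 1 and the right for replicate 2. Boxes span the 25th to 75th percentile, whiskers the 10th to 90th, and the line is the median. The medians lie at 1.84 and 1.73 where only the first start is CpG-rich, near 0 where both are, and at -0.99 and -1.25 where only the next one is.

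The ratio showed no steady trend with distance. The median log2 ratio was 0.77 and 0.90 in 203 genes with starts 5 to 10 kb apart, 0.55 and 0.48 in 244 genes at 10 to 25 kb, 1.17 and 1.09 in 171 genes at 25 to 50 kb, 0.88 and 0.86 in 164 genes at 50 to 100 kb, and 1.15 and 1.26 in 169 genes over 100 kb. The level of both starts was lower at long distance. In the closest class the medians were 3.97 and 5.52 at first and 1.87 and 2.40 at next starts. Over 100 kb they were 1.98 and 2.59 at first and 0.973 and 1.29 at next starts.

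In 342 genes (36.0%) some transcripts of both starts shared their first codon, so that for these transcripts the annotated starts change the leader. Other transcripts of the same starts may begin translation elsewhere. In the other 609 genes the annotated first codons differed, and the longest annotated coding sequence was longer at the first start in 443 and at the next in 162, with medians of 647 and 437 amino acids. These counts and lengths include starts with only incomplete 5′ ends. Over all internal starts the median length was 435 amino acids, and 472.5 at those with a complete 5′ end. The median log2 ratio was 0.65 and 0.70 with a shared first codon and 0.96 and 1.04 without. Annotation quality moved with the ratio. In 114 genes all transcripts at the next start had an incomplete 5′ end, and the median was 2.08 and 2.37. In the other 837 it was 0.65 and 0.70. What part such truncated models have in the values was not tested. Another gene's start lay within 500 bp of 23.6% of first and 6.52% of internal starts, and the peak there counts for both genes.

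Footprints were found at nearly all of these starts, and their number followed the peak value. A footprint midpoint lay within 500 bp in both libraries at 95.3% of first starts, 91.3% of internal starts and 96.1% of all open starts. The median number was 6 and 6 at first and 4 and 4 at internal starts. Within the lowest quartile of values over all open starts, footprints were present in both libraries at 84.7% (95% interval 80.0 to 88.7) of first and 84.5% (81.3 to 87.3) of internal starts. In the second quartile the shares were 99.6% and 97.9%. In the upper quartiles every first and every internal start had one, and among stricter peaks the shares over all values were 96.6% of first and 96.7% of internal starts. The counts still differed: in the second quartile of replicate 1 the mean was 6.49 ± 2.96 (SD, n = 270) at first and 5.22 ± 2.56 (SD, n = 302) at internal starts. Listed bases differed there in the same direction, 71.8% and 58.0%, which left 0.903 and 0.899 footprints per 100 listed bases, and 0.856 and 0.894 in replicate 2. The densities of the other quartiles did not all go one way. In the lowest they were 0.749 and 0.699 at first and 0.816 and 0.805 at internal starts, and in the highest 1.05 and 1.09 at first and 0.955 and 1.04 at internal starts.

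**Figure D4:**
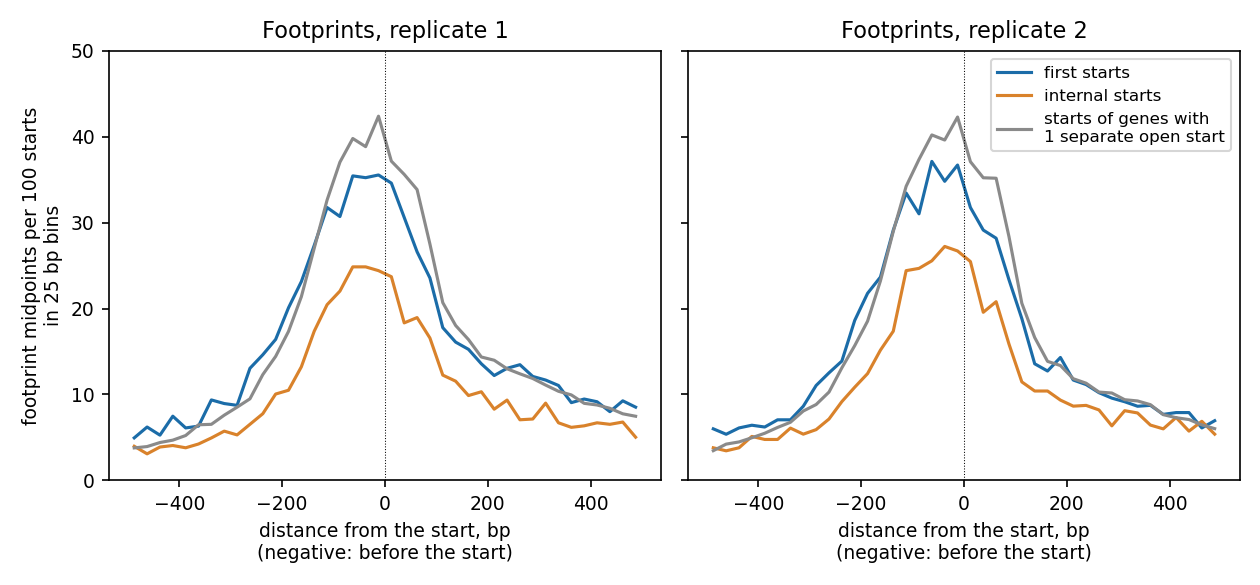
Footprint midpoints per 100 starts in bins of 25 bp against the distance from the start, for first starts, internal starts and starts of genes with 1 separate open start, in replicate 1 (left) and replicate 2 (right). All classes peak just before the start, at 35.5 and 37.1 per 100 first starts and 24.8 and 27.2 per 100 internal starts.

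Of midpoints within 250 bp, 57.1% and 59.0% lay upstream of first starts and 55.8% and 57.9% upstream of internal starts. The median width was 11 and 12 bp at first and 11 and 11 bp at internal starts. Footprints of 20 bp or more were 20.6% and 26.2% of those at first starts and 17.97% and 21.9% of those at internal starts. Footprints overlapped between the libraries at 90.1% of first and 82.0% of internal starts. The peaks of the libraries themselves did not overlap at 40 first starts (4.21%) and 63 internal starts (5.55%), against 4.31% of other genes' starts.

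The 2 classes held different short motifs. Motifs were searched on both strands in 200 bp around the peak midpoint. The myogenic E-box CAGCTG was present at 15.2% of first starts (95% interval 13.0 to 17.7), 24.5% of internal starts (22.0 to 27.1) and 12.3% of other genes' starts. Among CpG-poor starts the shares were 23.4%, 29.4% and 17.99%, and among CpG-rich starts 11.3%, 11.7% and 10.0%. Another E-box, CACCTG, did not differ in this way, with 11.9% of first, 12.2% of internal and 10.5% of other genes' starts. Its shares were 16.3%, 12.6% and 12.9% among CpG-poor starts and 9.70%, 11.1% and 9.46% among CpG-rich starts. GGAATG, the site of the TEAD factors, was present at 5.47% of first, 11.6% of internal and 6.36% of other genes' starts. TGANTCA, bound by AP-1, was present at 2.21%, 6.17% and 2.29%, and the core of the CTCF site at 0.95%, 2.64% and 1.03%. The reverse held for motifs of CpG islands. GGGCGG, bound by SP and KLF factors, was present at 65.9% of first, 40.8% of internal and 63.4% of other genes' starts, and the NRF1 site, GCGC followed by any 2 bases and GCGC, at 11.6%, 5.29% and 13.1%. CCGGAAG, bound by ETS factors, was at 9.46% of first and 4.93% of internal starts, both below the 15.6% of other genes. The shares also differed by CpG class. Among CpG-rich starts GGGCGG was at 75.6% of first and 76.5% of internal starts, GGAATG at 4.85% and 5.40%, and the CTCF core at 0.626% and 0.635%. Among CpG-poor starts GGGCGG was at 46.2% of first and 27.1% of internal starts, GGAATG at 6.73% and 14.0%, and the CTCF core at 1.60% and 3.41%. The MEF2 pattern was rare, at 1.16% of first, 1.23% of internal and 0.47% of other genes' starts, and it can overlap a TATA box. Under footprints widened by 5 bases, CAGCTG was in 1.25% and 1.24% of those at first starts and in 2.35% and 2.59% of those at internal starts.

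Among genes of the contractile apparatus, 7 of the 23 on the list with separate coding starts had several open, or 30.4%, beside 19.9% over all such genes. The lists hold genes picked partly because alternative promoters are known in them. Tpm1 encodes tropomyosin, which covers actin in the thin filament. It had 3.73 and 8.63 at its first start, which gives the long form of 326 annotated amino acids. Its next start, 5444 bp on, which gives a form of 251, had 12.3 and 19.02 and was higher in both libraries. Speg, a kinase of the triad and sarcomere, had 1.86 and 3.53, then 1.36 and 1.45, then 2.88 and 4.49. Its last start, which was CpG-poor and is annotated with a short coding sequence of 113 amino acids, was the highest in both libraries. Myl1, an essential light chain of fast myosin, had 1.34 and 1.67 at its first and 0.636 and 1.13 at its next start, 9747 bp on, both CpG-poor. Myom1, which crosslinks myosin at the M-band, had 16.2 and 25.5 at a CpG-rich first start that lies within 500 bp of another gene's start. At its next start, from which the longest annotated coding sequence of 1667 amino acids begins, it had 0.702 and 1.53. Myl4, an embryonic and atrial light chain, was likewise 13.9 and 13.1 at a first start near another gene and 0.680 and 1.17 at the next. Synpo2, an actin-binding protein of the Z-disc, had 1.13 and 1.98 at its first and 1.53 and 2.48 at its next start.

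Of the membrane and triad genes 8 of 19 (42.1%) had several open starts, beside 19.9% over all genes with separate coding starts. Atp2a1, the calcium pump of the sarcoplasmic reticulum in fast fibres, had 2.72 and 5.71 at its first start. Its next start, known only from a transcript with an incomplete 5′ end, had 0.511 and 0.235, from peaks of the libraries that did not overlap. Ank1 had 1.13 and 0.957, then 1.05 and 0.933 at the starts of its long ankyrin forms. It had 1.26 and 2.37 at its last start, which gives the small ankyrin of 156 amino acids that anchors the sarcoplasmic reticulum. Utrn, the dystrophin relative at the neuromuscular junction, had 3.92 and 6.60 at its first start, and 0.430 and 0.546 and 0.462 and 0.558 at the other 2. Dysf, a membrane repair protein, had 1.47 and 1.42 at its first and 1.55 and 2.88 at its next start, without a common call. Nrg1, a growth factor for Schwann cells and muscle spindles, had 0.479 and 0.335 at its first start. It had 3.89 and 3.75 at a CpG-rich start 874578 bp on, and 0.326 and 0.288 at its last. Asph, which gives aspartyl hydroxylase and the triad protein junctin, had 8.04 and 13.7 at its first and 1.09 and 1.99 at its next start.

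Among transcriptional regulators of muscle 20 of 32 genes (62.5%) had several open starts, beside 19.9% over all genes with separate coding starts. The first start was called higher in 15, the next in 1, and 4 had no call, where over all 951 genes the shares were 57.2% and 27.4%. The median of the mean log2 ratio was 1.56 over these genes and 0.90 over all 951. Rcan1 encodes an inhibitor of calcineurin, whose internal promoter is known to respond to calcineurin and NFAT. It had 6.07 and 13.0 at its first start and 3.08 and 3.59 at the internal start 66069 bp on. Hdac5, a histone deacetylase that holds back MEF2 factors, had 8.68 and 16.4 at a CpG-rich first start. At the next start, with a CpG ratio of 0.302, it had 9.30 and 14.9, and the libraries gave opposite calls. Mef2c itself had 1.98 and 3.77 at its first and 1.85 and 2.82 at its next start. Tead4, a TEAD factor induced in myogenic cells, had 2.76 and 3.06 at a CpG-rich first start. It had 2.80 and 4.17 at a CpG-poor next start, without a common call. Nfix, a driver of the fetal muscle programme, had 3.39 and 3.50 at its first and 3.30 and 6.77 at its next start. Tcf7l2, a Wnt effector, had 6.29 and 8.67 against 2.10 and 2.62, first and next start.

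Metabolic genes had several open starts in 11 of 27 cases (40.7%), beside 19.9% over all genes with separate coding starts. Acaca, the acetyl-CoA carboxylase of fatty acid synthesis, had 4.08 and 3.69 at its first and 8.41 and 16.3 at its next start, both CpG-rich. Acsl1, which activates fatty acids, had 11.96 and 18.5 against 0.859 and 1.36, first and next start, with the same coding sequence of 699 amino acids. Akt2, a kinase of insulin signalling, had 3.24 and 6.91, then 1.78 and 3.29, then 1.46 and 2.60. Prkag2, a regulatory subunit of the AMP-activated kinase, had 2.18 and 2.54, then 0.810 and 1.54, then 3.53 and 4.69, so that its last start, which gives the shortest of the 3 annotated forms, was the highest. Slc25a25, a mitochondrial ATP-Mg carrier, had 13.9 and 17.2 at its first start and lower values at both internal ones, 1.91 and 4.54 and then 0.963 and 2.20.

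Of the cytoskeletal linkers 25 of 28 genes (89.3%) had several open starts, beside 19.9% over all genes with separate coding starts. The lists were chosen with earlier results of these data known, so these shares do not rank the lists. The first start was called higher in 14, the next in 5, and 6 had no call, where over all 951 genes the shares were 57.2% and 27.4%. Plec encodes plectin, which ties intermediate filaments to Z-discs and membranes and is known for many alternative first exons. It had 4.25 and 4.77, then 0.924 and 1.12, then 2.51 and 3.29 over 31963 bp. Dst, which encodes dystonin, had 1.87 and 2.27, then 1.34 and 2.17, then 3.45 and 5.17, then 1.92 and 2.87, the third being the highest in both libraries. Macf1, the related linker of actin and microtubules, had 3.18 and 3.63, then 0.397 and 0.452, then 5.30 and 9.003 at its last start. Myo18a, an unconventional myosin, had 7.91 and 6.37 at its first and 3.22 and 5.08 at its next start. Epb41l2, a protein 4.1, had 13.6 and 14.3 at its first start and at most 1.52 and 3.30 at the other 3.

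**Figure D5:**
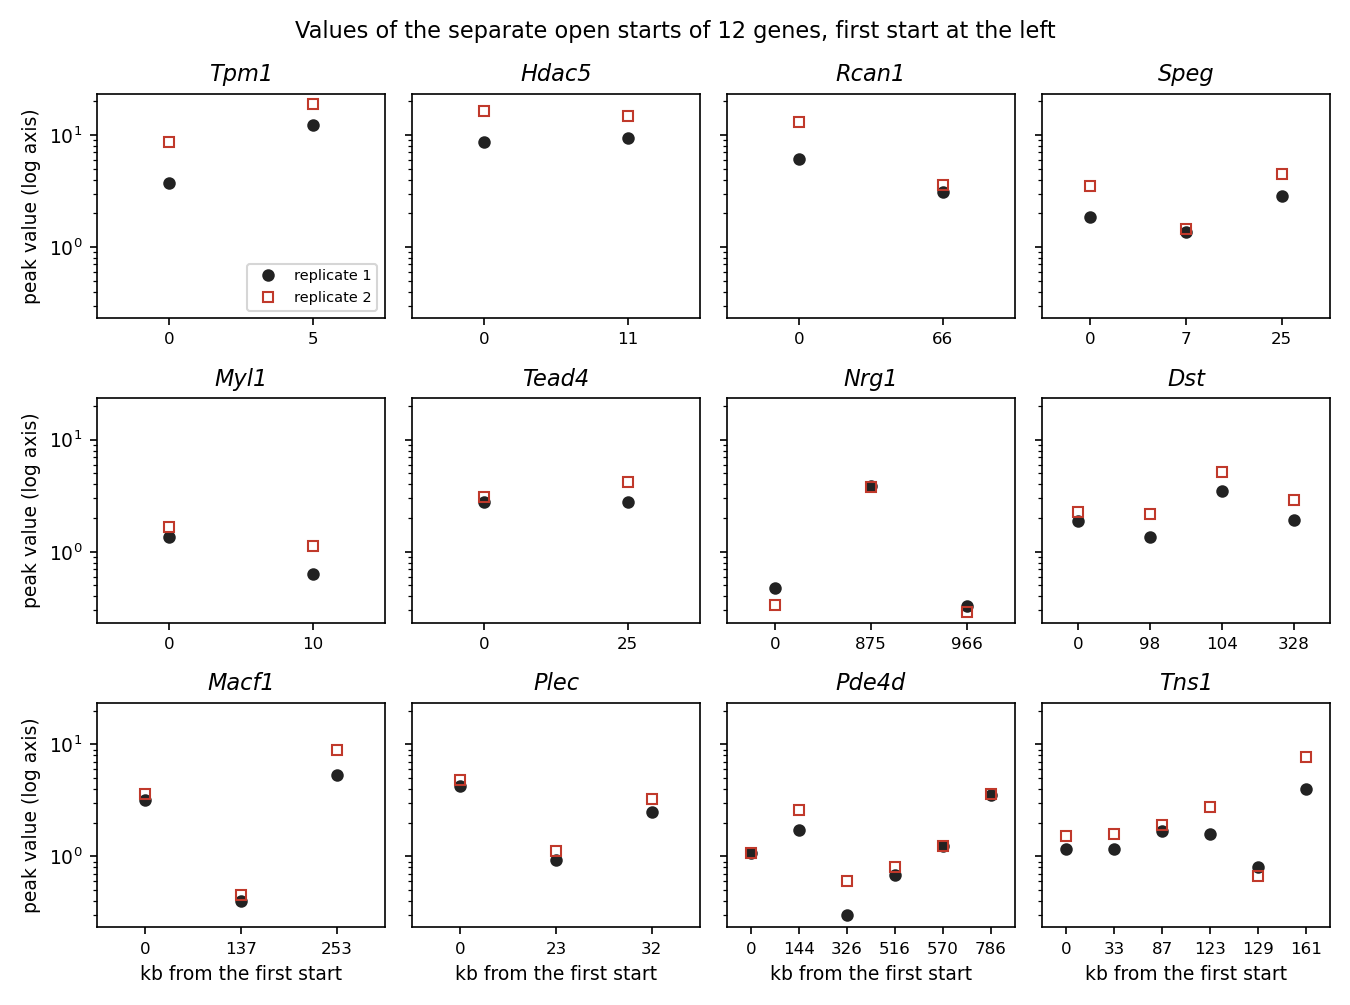
Peak value on a log axis at each separate open start of 12 genes, in 5′ to 3′ order with the distance from the first start in kb below, for replicate 1 (dots) and replicate 2 (squares). The last start is the highest of its gene in Tpm1, Speg, Macf1, Pde4d and Tns1 in both libraries, and a middle one in Nrg1 and Dst. In Tead4 the next start is barely above the first in replicate 1 and above it in replicate 2, without a common call.

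Among 141 genes with 3 or more, the first start was the highest in both libraries in 67, the last in 33 and a middle one in 26, while the libraries differed in 15. Pde4d, a phosphodiesterase that degrades cAMP and is known for long and short forms, had 6 open starts over 786465 bp. Its values were 1.07 and 1.07, 1.71 and 2.58, 0.299 and 0.599, 0.685 and 0.810, 1.23 and 1.23, and 3.54 and 3.59. The highest was the last, CpG-rich start, from which the shortest form of 584 annotated amino acids begins. Tns1, a tensin of focal adhesions, also had 6, with 1.16 and 1.51, 1.16 and 1.58, 1.70 and 1.91, 1.59 and 2.75, 0.805 and 0.675, and 3.997 and 7.78. Its last start was CpG-poor, with a ratio of 0.186. Tcf4, an E protein that pairs with myogenic factors, had 6.87 and 10.6 at its first and 6.18 and 9.99 at its last start, with at most 0.848 and 2.02 at the 3 between. Ank2, Frmd4a and Psd3 had 5 each, none above 3.77 in replicate 1 or 5.41 in replicate 2.

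Imprinted genes gave 6 of 12 (50%), beside 19.9% over all genes with separate coding starts. Gnas is known for the secretory protein NESP55, the large XLαs and the common Gsα subunit. Its separate open starts had 1.74 and 2.65, then 1.58 and 1.03, then 1.58 and 1.79. Which of these products each start gives was not tested, and starts under 5 kb from a kept one are not listed. The first and the next start had no common call. Igf2, a fetal growth factor, was higher at each further start in both libraries, with 0.642 and 0.757, then 1.05 and 1.47, then 2.26 and 3.92. Grb10, an adaptor that restrains insulin signalling, had 2.93 and 2.88 at its first and 1.05 and 0.593 at its next start. Zim1, a zinc finger gene, had 3.80 and 7.06 against 0.892 and 0.933, first and next start.

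On the remaining lists, signalling kinases and regulators of GTPases had several open starts in 30 of 46 genes (65.2%), nuclear receptors in 9 of 26 (34.6%) and ribosomal proteins in 0 of 1. The share over all genes with separate coding starts was 19.9%. Marker genes of other cells gave 0 of 6 for endothelium and mural cells, 0 of 4 for fibroblasts and tendon, and 2 of 3 for a mixed list of adipose, immune and nerve genes, namely Lipe, a lipase of adipocytes, and Mbp, a myelin protein. Genes of tissues absent from the sample gave 0 of 4. Some genes known for alternative promoters were not among the 951. Ppargc1a, the coactivator of mitochondrial biogenesis, had only 1 of its 2 separate coding starts open, with 0.653 and 0.822. Runx1, a transcription factor raised in denervated muscle, had 1 of 2 open with 3.06 and 5.65, and Agrn, the organiser of the neuromuscular junction, 1 of 2 with 6.73 and 8.56. Mylk, the kinase of smooth muscle myosin, had 0 of 2 open in both libraries, and Igf1 had a single separate coding start in the annotation, with 0.468 and 1.55.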

How the data were processed

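Peak values are a deposited signal that the authors had scaled to depth. Nearly all distinct low values were whole multiples, within 0.05 of a step, of 0.00544 in replicate 1 and of 0.00587 in replicate 2. This step was taken as 1 tag. Higher values were not checked against it, and tag numbers, calls and their intervals rest on it. Per the notes deposited with the files, peaks, footprints and false discovery rates were made for each library from its filtered alignments to mm10. Aligner, callers and versions: not given in the sources used here. Per-base FDR, a p-value type of number as deposited by the authors, lists only bases under 0.05, and of footprints, which all carry 0.01, the positions alone were used. CAST alleles, which may map less well to this reference, were not analysed here.

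Starts came from coding transcripts of GENCODE M21. From the 5′ end, a start was kept when it lay at least 5000 bp from the last one kept and had another peak of the wider peak set, and its value was the highest peak overlapping the 500 bp on either side. Shares of tags and of starts have exact 95% intervals, which cover counting error only, as tags may hold PCR copies. Python 3.11.15, numpy 2.4.6, pandas 2.3.3 and SciPy 1.17.1 were used, and the code was tested on simulated data. Members, gene lists and motifs were chosen with earlier results of these data known. Named genes are the 6 with most open starts, the 8 most extreme ratios at each end with at least 20 tags at the higher start (1 at each end is not reported here), up to 8 per list by the second highest start, the 3 on each side of the distance limit, and textbook cases.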

Additional observations from a re-analysis of the deposited data

How the results depend on the processing

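Of 156 values recomputed under 24 alternative settings, 116 stayed within the spread of the libraries, the counting interval or 1.5 times the count, and first starts had the higher median and the larger share of calls in each setting in which these were recomputed (15 and 16 of the 24). The rule gave 596 genes and 1316 starts at a minimum distance of 20 kb, and 619 genes and 1328 starts with basic transcripts only. The first start was called higher in 53.6% of genes with stricter peaks, and in 62.7% to 63.8% with a single library, where 1 call suffices; the next start was called higher in 28.7% to 29.8% there. The median value, as the mean of both libraries, moved to 2.44 at internal starts with stricter peaks and to 3.02 at first starts without starts near another gene, and with a single library it was 3.27 to 4.16 at first and 1.30 to 1.44 at internal starts.

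Footprints in both libraries were found at 89.3% of internal starts at 20 kb, at 93.6% with peaks within 250 bp, at 90.9% of first and 77.5% of internal starts with peaks within 1000 bp, at 96.6% and 96.7% with stricter peaks, at 93.7% of first starts away from other genes, and at 87.4% and 77.5% when the midpoint had to lie within 250 bp. With a single library the shares were 95.6% to 96.7% of first and 91.3% to 91.4% of internal starts. By quartile of value they were 84.7% of first and 84.5% of internal starts, 99.6% and 97.9%, 100% and 100%, and 100% and 100%. CpG-rich were 72.7% of first starts at 20 kb, 24.9% of internal starts with peaks within 1000 bp, 33.7% with stricter peaks, 30.7% without incomplete 5′ ends and with basic transcripts, and 63.7% of first and 24.3% of internal starts away from other genes. At a ratio of 0.75 and a GC content of 55% the shares were 39.96% and 14.4%, and over 250 bp on either side 70.7% and 32.2%. With a single library they were 65.1% to 65.8% of first and 23.8% to 26.5% of internal starts. In the setting with peaks within 1000 bp, footprints and CpG content were still read within 500 bp of the start. The cause of these shifts was not tested. The requirement that the peaks of the libraries overlap, added after the data were seen, gave 889 genes, and the first start was called higher in 57.0%. No paired analysis was possible because the study has 1 group and no comparison between groups.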

Other observations

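On the X chromosome, left out above because males carry a single copy, 31 of 164 genes with separate coding starts met the same rule (18.9%). Their median value was 1.47 and 1.42 at first starts and 1.10 and 1.497 at internal starts, so the libraries differed in which was higher. Dmd, which encodes dystrophin, the link of the myofibre cytoskeleton to its membrane, had 0.277 and 0.646 at its first open start and 1.85 and 1.58 at its next. Fhl1, a LIM protein of the sarcomere, had 1.62 and 2.24 at its first and 0.511 and 0.904 at its next start. Tsc22d3, a glucocorticoid-induced regulator, had 0.832 and 1.34 at its first and 1.61 and 2.58 at its next start. These 3 genes were chosen after their values were seen.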
